A study of Equus caballus with 9 samples.

Results

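The genes described here were those whose RNA was low in horse cells taken towards adipocytes (ADM) and not low in undifferentiated or chondrogenic cells. They were chosen by their measured levels in all 9 libraries, in CPM (the gene's share of a library's reads, scaled to a common total) with TMM scaling, which corrects library totals by a trimmed mean of ratios. A gene was taken when its lowest value in the 6 undifferentiated and chondrogenic libraries was at least 2 CPM and at least 2 times its highest ADM value. The ranges of the undifferentiated and the chondrogenic libraries also had to overlap. Of 13571 genes tested, out of 30371 gene IDs in the files, 32 met these conditions. Because the choice used the levels, the differences of these genes between groups are a description and not a test of the groups.

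The study grew bone marrow-derived mesenchymal stromal cells (MSC) of the horse, untreated or after an adipogenic (ADM) or a chondrogenic (CDM) procedure, with 3 libraries per group. The labels give no animal, age, sex, medium, agent or time in culture, and nothing says whether replicates came from separate cultures. The p-values therefore cover nothing beyond the differences among libraries of 1 group, which could be technical. Poly(A) RNA of whole cultures was sequenced, so fewer cells of a type and less RNA per cell cannot be told apart.

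Stromal cells of bone marrow can be driven in culture towards fat, cartilage and bone. During adipogenesis the cells fill with lipid droplets, and the transcription factors PPARG and C/EBP switch on lipid storage genes while much of the fibroblast-like programme of matrix, cytoskeleton and growth genes is turned down. Chondrogenesis instead keeps and reshapes matrix production through SOX9. Which of the 32 genes belong to such programmes was not determined here, because 0 of the 30371 IDs, and so 0 of the 32, matched the gene table used here. For the same reason the labelled cell types were not checked against adipocyte, chondrocyte or stromal markers. The genes are numbered 1 to 32 by their separation, the ratio of the lowest MSC or CDM value to the highest ADM value, and the 2 with the largest ratio are given by ID.

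Gene counts per library ranged from 17260899 to 39331930, and 1 count was worth 0.0252 to 0.0329 CPM in the ADM libraries. CDM2 (CDM replicate 2) stood apart. Its 10 most abundant genes held 56.2% of its gene counts, against at most 29.9% elsewhere, and its TMM factor was 0.525, against 0.904 to 1.41. It had the fewest counts, and 1 count was worth 0.1105 CPM in it.

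In the plane of the values that the rule used, the 32 genes lay along the edge of the cloud of tested genes. The separation was 25.5-fold for the gene ranked 1 and 12.4-fold for the gene ranked 2, and its median was 2.73-fold. It was at least 5-fold in 6 genes and at least 3-fold in 13, while 15 genes lay under 2.5-fold. The 3 genes just inside the limit had ratios of 2.05, 2.02 and 2.01, and the 3 just outside had 1.98, 1.97 and 1.97. A further 33 genes met every other condition at ratios from 1.5 to 2, so the limit fell within a continuous run of values. At the limit of 2 CPM, the lowest MSC or CDM values just inside were 2.12, 2.15 and 2.43 CPM, and those just outside were 1.85, 1.61 and 1.49 CPM. Another 3 genes met both level conditions but had MSC and CDM ranges that did not overlap, with CDM above MSC in 1 and below it in 2.

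**Figure D1:**
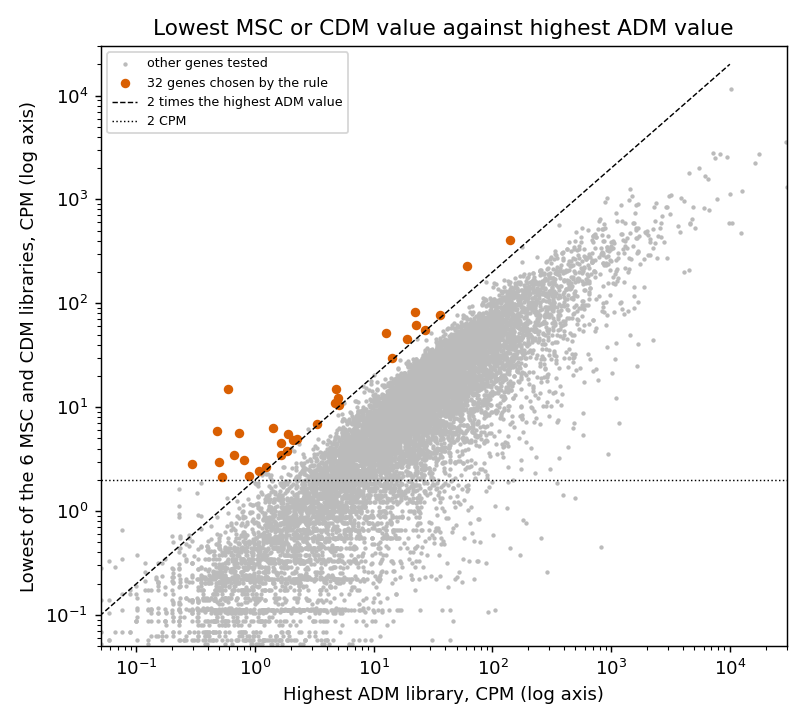
For each tested gene with values above 0, the plot shows the highest ADM library against the lowest of the 6 MSC and CDM libraries, both in CPM on log axes. The 32 genes (orange) sit above the dashed line of the 2-fold limit and the dotted line of 2 CPM, most of them close to the dashed line; the few genes beyond the axis limits are not drawn.

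ENSECAG00000000157, ranked 1, had nearly no reads in the ADM libraries. It was at 23.5, 29.7 and 34.2 CPM in MSC1, MSC2 and MSC3, and at 20.6, 36.2 and 14.9 CPM in the CDM libraries. In ADM it was at 0.151, 0.585 and 0.0658 CPM, from 6, 20 and 2 counts. The MSC and CDM libraries thus shared 1 range, and every ADM library lay far below it. The group means were 29.1 ± 5.39 CPM in MSC, 0.267 ± 0.278 CPM in ADM and 23.9 ± 11.03 CPM in CDM (SD, n = 3 each). MSC was 109-fold and CDM 89.4-fold above ADM.

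ENSECAG00000024282, ranked 2, had a much wider range outside ADM. It was at 29.0, 182 and 22.7 CPM in the MSC libraries and at 80.5, 5.96 and 7.63 CPM in CDM. In ADM it was at 0.479, 0.0585 and 0.428 CPM, from 19, 2 and 13 counts. MSC2 and CDM1 were high, the other MSC and CDM libraries were at 5.96 to 29.0 CPM, and no ADM library reached them. The means were 77.8 ± 90.1 CPM in MSC, 0.322 ± 0.230 CPM in ADM and 31.4 ± 42.6 CPM in CDM (SD, n = 3 each), so the MSC mean rested mostly on 1 library.

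The low ADM level was a near absence of reads in some genes and a reduced but clear level in others. The highest ADM library was under 1 CPM in 9 genes, between 1 and 10 CPM in 14 and above 10 CPM in 9. The word lost therefore fits only part of them. The gene ranked 14 is the clearest case of a reduced level. It was at 411, 781 and 754 CPM in MSC and 474, 681 and 410 CPM in CDM, and still at 139, 114 and 122 CPM in ADM, which is 5.19-fold under the MSC mean. It was one of 2 genes whose lowest MSC or CDM value exceeded 100 CPM; the other, ranked 11, was at 226 to 817 CPM in those libraries and at 60.7, 22.6 and 22.2 CPM in ADM. The gene ranked 9 had 0 counts in ADM3, which allows up to 0.0988 CPM at 3 counts (counting error only), and it was the only one of the 32 with a 0 in an ADM library.

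The ADM libraries were closer to each other than both the MSC and the CDM libraries were in 21 of the 32 genes. The share over all genes tested was not taken for this count. The highest ADM library was 1.81 times the lowest in the median of the 32, against 3.05 times within MSC and 5.17 times within CDM. Over the 11360 tested genes that averaged 2 CPM or more, the same medians were 1.36, 1.76 and 2.76, so the order of the groups was the same and the spread was wider in the 32 genes. The 2 sets were not matched for level in ADM, where some of the 32 rested on few counts. The part of counting error in the wider spread was not tested. The gene ranked 28 had the closest ADM values, at 4.97, 5.09 and 4.97 CPM in ADM against 145, 28.3 and 10.99 CPM in MSC and 16.5, 33.0 and 10.5 CPM in CDM. The highest ADM library was at least 5 times the lowest in 4 genes, including the gene ranked 9, which had no count in ADM3. It was 8.89 times the lowest in the gene ranked 1, 8.19 times in the gene ranked 2 and 15.4 times in the gene ranked 18, which stood at 4.97, 0.322 and 2.93 CPM. No ADM library was always the lowest: ADM1 was lowest in 11 genes, ADM2 in 12 and ADM3 in 9.

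**Figure D2:**
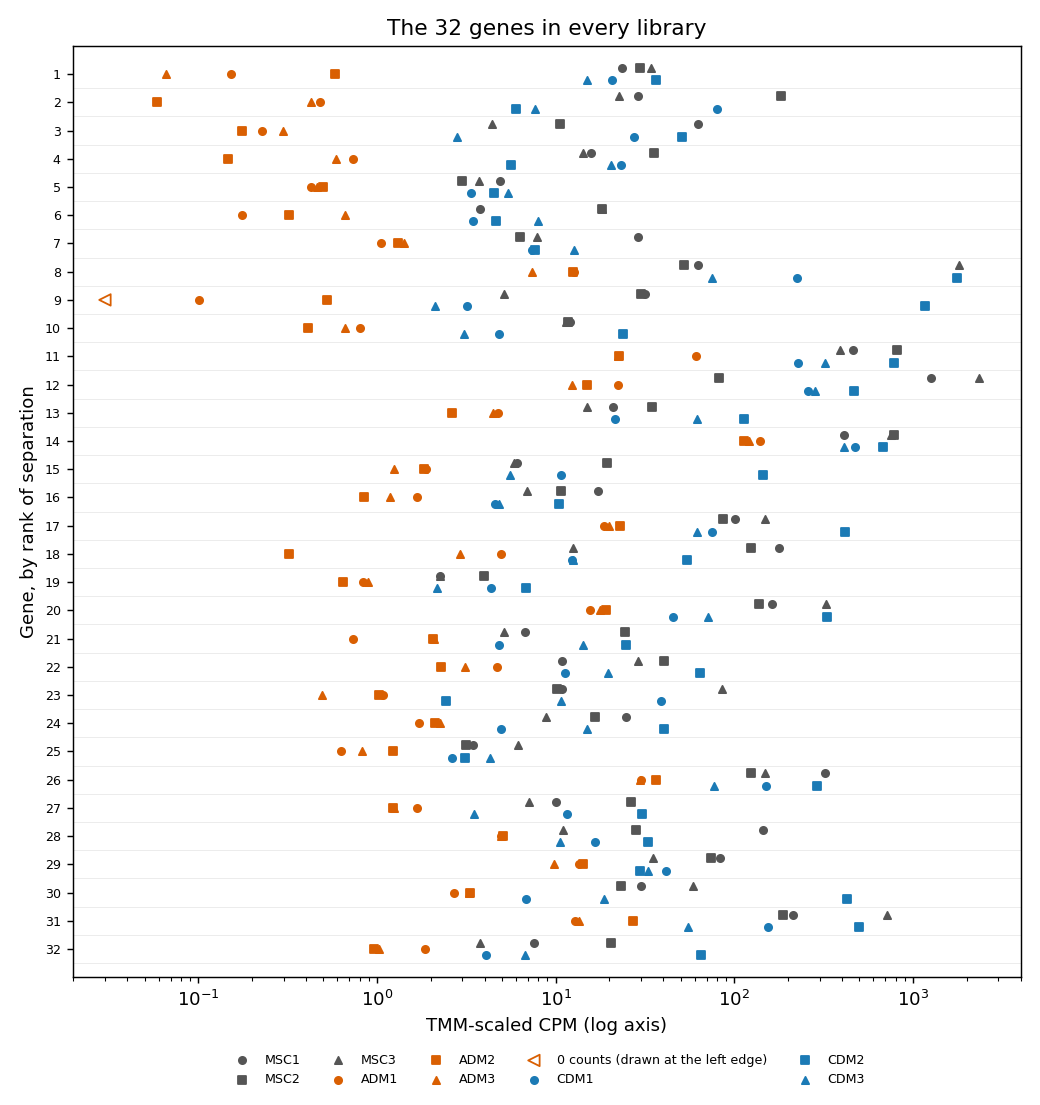
Each row is 1 of the 32 genes, ranked by separation, and each point is 1 library, in CPM on a log axis (grey MSC, orange ADM, blue CDM; circles, squares and triangles for replicates 1, 2 and 3). The ADM points lie left of all others in every row, as the rule required, and the grey and blue points spread far more than the orange ones in most rows.

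The 6 MSC and CDM libraries varied widely in most of these genes. The highest of the 6 was 7.38 times the lowest in the median, against 3.68 times over the 11360 tested genes. It was more than 10 times the lowest in 12 genes and under 3 times in 5, those ranked 1, 5, 14, 25 and 29. The gene ranked 5 had the narrowest range, 1.80-fold. It was at 4.91, 3.00 and 3.72 CPM in MSC, 3.36, 4.53 and 5.38 CPM in CDM and 0.429, 0.497 and 0.461 CPM in ADM, so that 2 tight levels stood 6.02-fold apart at their nearest points.

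The widest range was that of the gene ranked 9, at 554-fold. CDM2 held it at 1175 CPM, whereas CDM1 and CDM3 were at 3.19 and 2.12 CPM and the MSC libraries at 31.7, 30.1 and 5.14 CPM. The gene ranked 8 had high values in 1 library of each group, 1811 CPM in MSC3 and 1764 CPM in CDM2, against 52.3 to 224 CPM in the other 4. The gene ranked 12 was the most abundant in MSC, at 1260, 82.0 and 2341 CPM, with CDM at 260, 465 and 284 CPM and ADM at 22.2, 14.95 and 12.3 CPM. In such genes the mean of a group says little about any of its libraries.

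CDM2 was the library that most often held the highest value. It was the highest of the 6 in 14 of the 32 genes (43.8%), while the share over all genes tested was 31.0%. In 6 genes it was at least 2 times the next library, those ranked 9, 10, 15, 17, 30 and 32. It was the lowest in 4 (12.5%), against 35.0% of all genes tested. CDM1 was the highest in 0 genes and CDM3 in 1 (3.12%), against 14.8% and 12.1% of all genes tested. These 2 were the lowest of the 6 in 9 genes (28.1%) and 12 genes (37.5%), against 14.9% and 10.7%. The rule shaped these counts, because it left out genes in which any of the 6 libraries was under 2 CPM or near ADM. It also left out genes whose CDM libraries all lay below, or all above, the MSC libraries. The shares over all genes tested carry no such limits, so nothing about the 32 genes is read from the differences. The counts depend on the scaling: with library totals alone CDM2 was the highest in 5 of the 32 genes, against 13.2% of all genes tested, and the lowest in 9.

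The mean of the other CDM libraries was below the MSC mean in most of these genes. With CDM2 included, the CDM mean was above the MSC mean in 14 genes and below it in 18, and the median ratio of CDM to MSC was 0.845. Over all genes tested 52.4% were above. Without CDM2 the CDM mean was above in 3 and below in 29, with a median ratio of 0.575, against 0.982 for all genes tested. Of all genes tested 51.8% were then below. The direction was the same with size factors from DESeq2 (29 below, against 51.6% of all genes tested). It was also the same with library totals (31 below, against 70.1%), although all genes then had a median ratio of 0.825. With library totals and all 3 CDM libraries, 27 genes were below, and the share over all genes tested was not taken. Both CDM1 and CDM3 lay under all MSC libraries in 10 genes, and none had both above. Over all genes tested these shares were 10.7% and 9.68%. In 22 genes the range of CDM1 and CDM3 overlapped that of MSC. CDM1 lay under all MSC libraries in 14 genes and CDM3 in 19, against 25.3% and 26.1% of all genes tested. The rule used the MSC and CDM values, so nothing about the 32 genes is read from these differences. The overlap condition kept those 10 genes only because CDM2 reached the lowest MSC value in them. The name given to these genes, low only in ADM, therefore rests in part on CDM2. Without that library, and with the filter and scaling done anew, the rule gave 33 genes, of which 22 were among the 32. With the scaling kept it gave 28, also with 22 of the 32.

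Summed over the 32 genes, the level was 3763, 3056 and 7051 CPM in MSC1, MSC2 and MSC3. It was 364, 313 and 289 CPM in the ADM libraries and 1977, 7591 and 1655 CPM in CDM1, CDM2 and CDM3. MSC3 and CDM2 were the highest, and no ADM library came near any of the other 6. The means were 4623 ± 2132 CPM in MSC, 322 ± 38.3 CPM in ADM and 3741 ± 3338 CPM in CDM (SD, n = 3 each), 14.4-fold and 11.6-fold above ADM. Without CDM2 the CDM mean was 5.64-fold above ADM. The 6 most abundant genes held 70.3% of the sum on average over the 6 MSC and CDM libraries. The other 26 genes together were at 1322, 1107 and 1032 CPM in MSC, so that MSC3 was not high in them. They were at 116, 122 and 112 CPM in ADM and at 637, 2222 and 507 CPM in CDM.

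**Figure D3:**
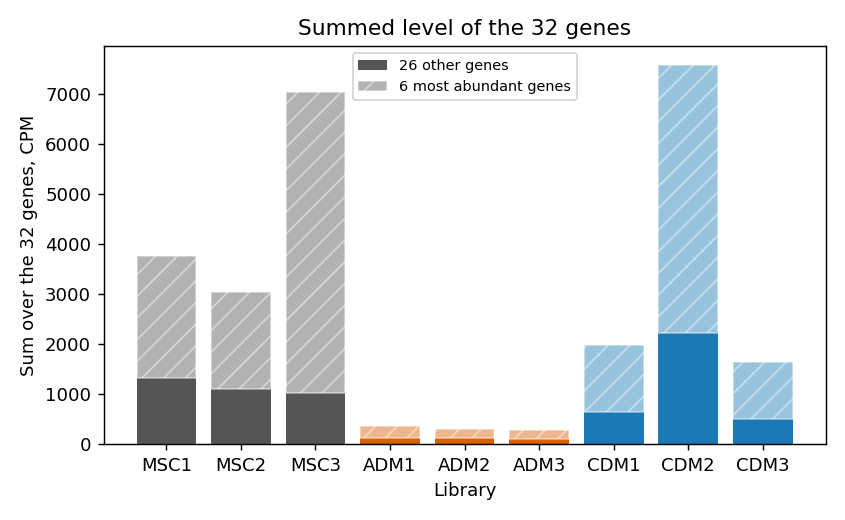
Bars give the sum of the CPM of the 32 genes in each library, with the 6 most abundant genes hatched and the 26 others solid. The ADM bars reach 289 to 364 CPM; MSC3 and CDM2 reach 7051 and 7591 CPM, mainly through the hatched part.

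How much the choice leaned on each library was described by leaving it out in turn. The genes were chosen anew from the other 8 libraries, with the scaling kept, and the value of the left-out library was then read. The genes that met the condition in it were in each case among the 32, which were chosen with that library, so what these counts add is how many genes failed. Without ADM1 the rule chose 40 genes, and the lowest MSC or CDM value was at least 2 times ADM1 in 32 of them (80.0%). Over all genes tested 1.78% met that condition. For ADM2 it was 32 of 41 genes (78.0%, against 1.95%) and for ADM3 32 of 39 (82.1%, against 1.89%). Each left-out ADM library lay below all 6 others in 39 of 40, 41 of 41 and 39 of 39 genes, against 11.3% to 12.4% of all genes tested. The genes that did not meet the 2-fold condition numbered 8 in ADM1, 9 in ADM2 and 7 in ADM3.

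The MSC and CDM libraries were read in the same way, asking for at least 2 CPM and 2 times the highest ADM value. MSC1 met this in 30 of 35 genes, MSC2 in 30 of 34 and MSC3 in 28 of 39. CDM3 met it in 30 of 39 and CDM1 in 29 of 47 (61.7%), the lowest share. Over all genes tested the shares for these 5 libraries were 2.74% to 6.08%. CDM2 met it in 22 of 28 genes (78.6%), but also in 20.8% of all genes tested, more than any other library. These shares carry no test and are no independent support for the 32 genes.

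**Figure D4:**
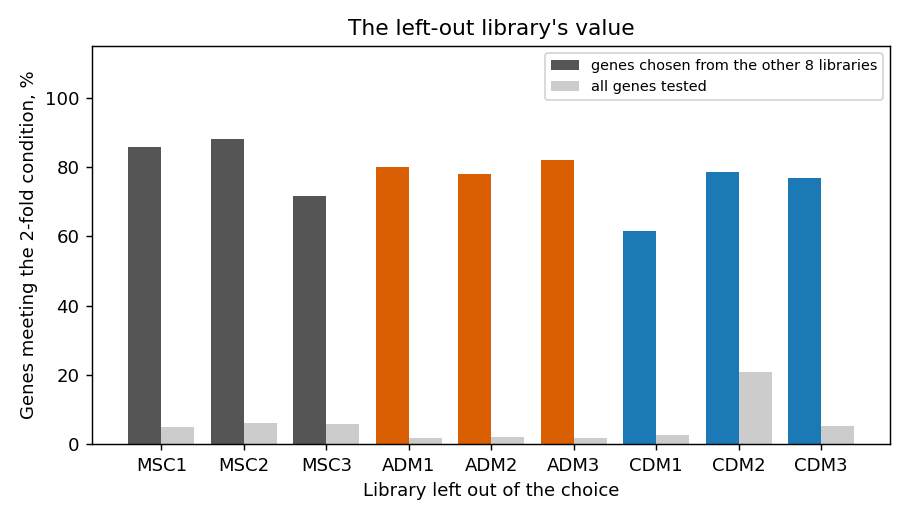
For each library left out of the choice, the coloured bar is the percent of genes chosen from the other 8 libraries that met the 2-fold condition in the left-out library, and the grey bar is the percent of all genes tested. Coloured bars range from 61.7% (CDM1) to 88.2% (MSC2), and the grey bar is highest for CDM2, at 20.8%.

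The fit of all 9 libraries compared ADM with MSC to ask what changed with the adipogenic procedure. The log2 fold changes of the 32 genes ran from -7.90 (rank 2) to -1.83 (rank 19) with a median of -3.54, against -0.03 over all genes tested. In edgeR's quasi-likelihood test with Benjamini-Hochberg adjustment, 1 of the 32 passed as lower, among 2 lower genes in all (0.0147% of the genes tested). All 32 had an unadjusted p under 0.05 and were lower, against 6.12% of genes tested, and DESeq2 called 28 lower, against 2.24% of the genes it tested. The rule used this contrast, so nothing is read from these counts; DESeq2 gave no adjusted p for the genes ranked 2, 9 and 30. Every ADM library lay below all 6 others in the 32 genes because the rule asked for it, and in 5.16% of all genes tested.

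The gene that passed was ENSECAG00000000157, with a log2 fold change of -6.74 (SE 0.79, edgeR adjusted p = 0.0421). The call was lost without MSC1 (adjusted p = 0.0644), MSC2 (0.101), MSC3 (0.0588), ADM1 (0.261) or ADM3 (0.159), while the log2 change stayed between -7.98 and -6.29 over all 9 such edgeR fits. ENSECAG00000024282 had a larger log2 change of -7.90 with a larger error (SE 1.54, edgeR adjusted p = 0.0998). The genes ranked 4 and 5 both had an edgeR adjusted p of 0.0598, at log2 changes of -5.47 (SE 0.81) and -3.06 (SE 0.46). The number of the 32 that edgeR called was 20 without CDM2, among 173 genes called of 14055 tested, and 2 without CDM1, among 23 of 14036. The number was 1 without MSC2, ADM2 or CDM3, among 1, 1 and 6 genes called of 13983, 14064 and 14123 tested. Without MSC2 the gene called was neither of the 2 given by ID (edgeR adjusted p = 0.101 and 0.248). The number was 0 without MSC1, MSC3, ADM1 or ADM3. In these 4 fits edgeR called no gene of the whole table and 914 to 1863 genes had an unadjusted p under 0.05. Fitting ADM and MSC without the CDM group gave 18 of 32, among 183 genes called of 13256 tested.

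ADM was compared with CDM for the difference between the lineages. The log2 differences ran from -10.84 (rank 9) to -1.46 (rank 29), with a median of -3.55 for the 32 and -0.07 for all genes tested. Without CDM2 the median of the same 32 genes was -2.54. In edgeR 0 of the 32 passed, with adjusted p from 0.141 to 0.244, and no gene of the whole table did (0% called). All 32 had an unadjusted p under 0.05 in the lower direction, against 11.7% of genes tested, and DESeq2 called 28 lower, against 4.26% of the genes it tested. The rule used this contrast too, and it shares the ADM libraries with the comparison above. The gene ranked 1 was at -6.45 (SE 0.78) and the gene ranked 29, the nearest to CDM, at -1.46 (SE 0.37), with 13.6, 14.3 and 9.78 CPM in ADM and 41.2, 29.6 and 32.8 CPM in CDM.

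CDM was compared with MSC to see where the chondrogenic libraries stood. The overlap of their ranges was part of the rule, so the values are a description. Over all genes tested, log2 CPM correlated at 0.772 to 0.944 between MSC and CDM libraries. Within MSC it correlated at 0.856 to 0.924 and within CDM at 0.764 to 0.908. The 2 groups were thus not set apart by these correlations. ADM libraries correlated with MSC at 0.866 to 0.898, inside the range within MSC, and with CDM at 0.741 to 0.934. The overlap was therefore not special to MSC and CDM, although ADM libraries correlated with each other at 0.971 to 0.974. Across the 32 genes, MSC and CDM libraries correlated at 0.638 to 0.870. The values there were 0.708 to 0.781 within MSC and 0.562 to 0.824 within CDM, so the overlap was not particular to the 32 genes. The log2 fold changes ran from -1.99 (rank 18) to 4.14 (rank 9), with a median of -0.25 for the 32 and 0.04 for all genes tested. In edgeR 0 of the 32 passed and 0 genes passed in all (0% of genes tested), and DESeq2 called 0 of the 32, against 0.577% of the genes it tested. At an unadjusted p under 0.05 in edgeR there were 2 of the 32, against 11.1% of genes tested: the gene ranked 13 at 1.47 and the gene ranked 29 at -0.89. The standard errors ran from 0.37 (rank 29) to 2.08 (rank 9), and these values do not show that CDM and MSC were alike.

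**Figure D5:**
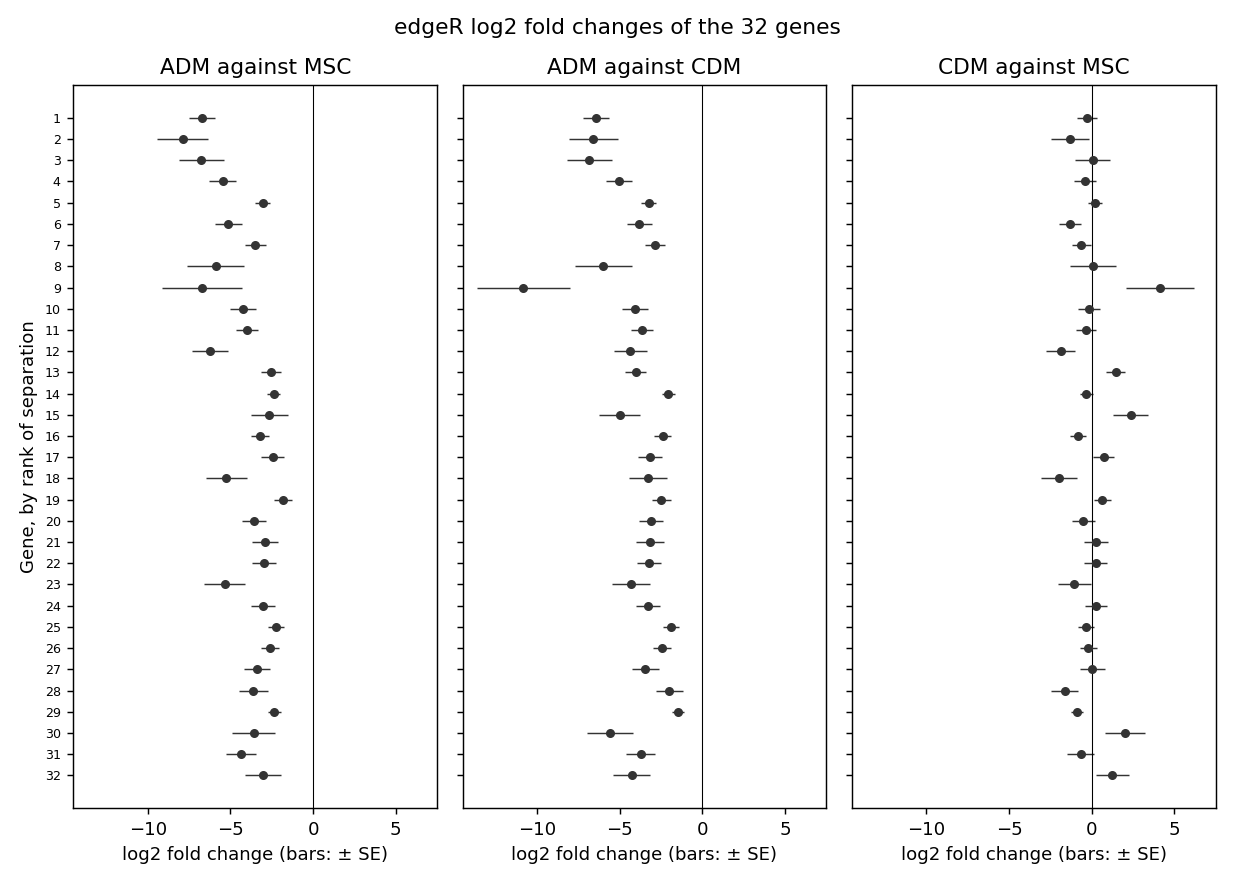
Points give the edgeR log2 fold change of each of the 32 genes, in rank order, for ADM against MSC, ADM against CDM and CDM against MSC, and bars are ± 1 SE. In the first 2 panels all points lie below 0, from -10.84 to -1.46, and in the third they lie on both sides of 0, from -1.99 to 4.14.

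The same rule was applied with the other groups in the place of ADM. It gave 2 genes low only in CDM and 2 low only in MSC, and the mirror rule gave 72 genes high only in ADM. These counts were not tested against each other, and the spread within the ADM libraries was smaller than within the other groups, as given above.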

How the data were processed

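Poly(A) RNA of 9 horse cultures was sequenced. The authors deposited 1 table of raw gene counts per library. Per the submitters' processing notes, the build was equCab3 and the tools were HTSeq 1.99.2, STAR 2.7.5c, FastQC 0.11.9 and DESeq2 3.16. The annotation release, like the strand setting, is not given in the sources used here, so reads of overlapping, antisense or near-identical genes may not have been kept apart. The 5 closing lines per table (24.4% to 36.4% of counted reads) name no gene and were left out.

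Groups and replicate numbers came from the sample titles. Counts were filtered (filterByExpr by group), scaled by TMM and fitted with edgeR 4.0.16 in R 4.3.3: a quasi-likelihood test, 2-sided, in 1 fit of 9 libraries with 6 residual degrees of freedom, adjusted by Benjamini and Hochberg at 0.05. DESeq2 1.42.0 was an alternative. The SE came from the log2 change and its F statistic. Pairs of libraries within a group differed by a chi-square per degree of freedom of 69.2 to 1988, so none was counted as a repeat. The scripts were tested on simulated data. Named genes are the 2 with the largest separation; others are given by rank, and those described in full by rank were picked after their values were seen. The 23 symbol lists could not be matched. The members and lists were chosen with earlier results of these data known.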

Additional observations from a re-analysis of the deposited data

Results flagged for a closer look

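Reads assigned to no gene, which the comparisons do not use, made up 36.4% of counted reads in CDM2 and 30.2% in CDM3, above the MSC libraries (25.8% to 28.8%). In CDM1 the share was 24.6%, below every MSC library. Their part in the levels of the 32 genes was not tested.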

How the results depend on the processing

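The count of 32 genes was 13 at a 3-fold limit, 65 at a 1.5-fold limit and 19 at a minimum of 5 CPM, by construction of the limits. Leaving out 1 library, with the filter and scaling done anew, gave 33 to 50 genes, the most without CDM1. Of the original genes, 22 (without CDM2) to 32 were among them. With the scaling kept, as in the left-out counts above, the rule gave 28 (without CDM2) to 47 (without CDM1) genes. Size factors from DESeq2 gave 38 genes with all 32 among them. Library totals alone gave 26, with 19 of the 32; of the 13 others, 8 fell under the 2-fold limit, 2 under 2 CPM and 5 lost the overlap, some by more than 1 of these. In all 32 every ADM library was still below the other 6 under each of these scalings. The median log2 difference between ADM and MSC was -3.72 to -3.45 over all alternatives, and that between ADM and CDM -3.73 to -2.54 without 1 library, the last without CDM2. Library totals moved the median of all genes to -0.26 (ADM against MSC), 0.19 (ADM against CDM) and -0.45 (CDM against MSC).

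Calls between ADM and MSC numbered 4, and 41 with no filter on low counts, 592 in DESeq2, 183 with only the 2 groups and 0 to 173 without 1 library. Calls between ADM and CDM numbered 0, and 1 with no filter, 930 in DESeq2 and 0 to 1 without 1 library; between CDM and MSC they numbered 0, and 83 in DESeq2. Of the 32 genes, edgeR with no filter called 10 between ADM and MSC and 1 between ADM and CDM, among 41 and 1 genes called of 20449 tested. The log2 change of ENSECAG00000024282 between CDM and MSC was -1.31, and -3.52 to 0.30 without 1 library, above 0 only without MSC2. The causes were not tested. With the replicate number as a block, 0 genes passed in each comparison (4, 0 and 0 without it), and the adjusted p of ENSECAG00000000157 between ADM and MSC was 0.0862 (edgeR). Deviations of same-numbered libraries correlated at -0.306 to 0.0121, and 0, 0 and 1 of 6 libraries correlated best with their own number. No pairing by number was seen. The deviations were taken from means of 3 libraries, where 1 outlying library can mask a pairing, so this check cannot exclude it. At 0.0252 to 0.0329 CPM per count, ADM values under 0.1 CPM rest on 3 counts or fewer.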

Other observations

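The levels of the 32 genes in ADM correlated with those in the other groups, at lower values than over all genes tested. Across these genes, log2 CPM (prior count 2) correlated with the 3 ADM libraries at 0.676 to 0.754 for CDM1, 0.552 to 0.686 for CDM2 and 0.816 to 0.857 for CDM3. For MSC1, MSC2 and MSC3 the values were 0.674 to 0.749, 0.609 to 0.733 and 0.704 to 0.754. Over all genes tested they were 0.916 to 0.934 for CDM1, 0.741 to 0.749 for CDM2 and 0.895 to 0.914 for CDM3. For MSC1, MSC2 and MSC3 they were 0.888 to 0.898, 0.866 to 0.876 and 0.880 to 0.892. The ADM libraries correlated with each other at 0.899 to 0.963 across the 32 genes and 0.971 to 0.974 over all genes tested. The points are 32 genes that share libraries and were chosen by their levels, so these values are a description. Their range of levels was not matched to that of all genes tested, so nothing is read from the lower values.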
